A study of Homo sapiens with 3 samples.

Results

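The bone morphogenetic protein (BMP) genes described here are 10 genes followed through human neural differentiation: the ligands BMP4 and BMP7, the receptor BMPR1B, the target genes ID1, ID2, ID3 and ID4, and the inhibitors BAMBI, SMAD6 and SMAD7. They were taken by name, with every probe set whose only gene symbol was that of a member. This gave 23 of the 54613 non-control probe sets on the array, for 10 of 19775 genes, and 1 further probe set that also carries another gene's symbol (shared by ID2 and ID2B) was left out. All cultures came from H9, an established human embryonic stem cell line of 1 genotype, removed from mouse embryonic fibroblasts and formed into embryoid bodies at the start of differentiation. Neuroepithelial cells (NE) were collected at day 17 and had received no morphogen. Astrocytes were collected at day 210 after retinoic acid (RA) or after FGF8, each applied from day 10 to day 21, so against the NE culture the morphogen and the time in culture cannot be told apart. There was 1 array for each of the 3 groups, so no value has a replicate, no test was possible, and differences are described by size alone.

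BMPs are secreted dimers that bring type I and type II serine/threonine kinase receptors together on the cell surface. The type I receptor then phosphorylates SMAD1, SMAD5 and SMAD9, which join SMAD4 in the nucleus. The ID genes are the best known early targets of this pathway. Their products are helix-loop-helix proteins without a DNA-binding region, and they sequester the E proteins that proneural factors need. SMAD6, SMAD7 and BAMBI are also induced by the pathway and dampen it. In the developing nervous system BMPs oppose neural induction, pattern the dorsal neural tube and later favour astrocytes over neurons and oligodendrocytes.

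The upstream sequences of the ID genes are shown because these 4 genes encode one protein family and are all known BMP targets, while the sizes of their differences on these arrays were far apart. Each is the 250 bases before the RefSeq start site on GRCh38.p14, at chr20:31605039-31605288 on the plus strand for ID1, chr2:8681806-8682055 on the plus strand for ID2, chr1:23559502-23559751 on the minus strand for ID3 and chr6:19837120-19837369 on the plus strand for ID4. Capitals mark GTCT or its reverse complement AGAC, the short SMAD-binding letters.
ID1: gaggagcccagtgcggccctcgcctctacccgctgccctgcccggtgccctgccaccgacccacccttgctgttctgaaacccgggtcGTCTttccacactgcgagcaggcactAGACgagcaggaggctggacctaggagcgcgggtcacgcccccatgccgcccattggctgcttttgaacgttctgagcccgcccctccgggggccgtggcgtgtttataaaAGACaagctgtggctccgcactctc
ID2: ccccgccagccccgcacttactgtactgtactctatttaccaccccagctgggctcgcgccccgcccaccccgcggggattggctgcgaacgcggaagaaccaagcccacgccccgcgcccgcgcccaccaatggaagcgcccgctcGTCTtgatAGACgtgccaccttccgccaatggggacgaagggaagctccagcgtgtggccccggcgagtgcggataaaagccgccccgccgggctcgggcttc
ID3: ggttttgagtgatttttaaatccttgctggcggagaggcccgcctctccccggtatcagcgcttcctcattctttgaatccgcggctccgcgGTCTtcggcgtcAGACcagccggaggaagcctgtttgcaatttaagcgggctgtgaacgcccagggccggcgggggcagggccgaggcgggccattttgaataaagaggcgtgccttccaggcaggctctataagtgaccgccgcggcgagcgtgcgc
ID4: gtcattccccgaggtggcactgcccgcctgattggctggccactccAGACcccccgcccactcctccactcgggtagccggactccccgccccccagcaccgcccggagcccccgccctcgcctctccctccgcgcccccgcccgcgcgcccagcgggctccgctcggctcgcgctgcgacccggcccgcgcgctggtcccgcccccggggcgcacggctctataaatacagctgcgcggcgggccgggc

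The ID1 window held 3 such matches, the ID2 and ID3 windows 2 each and the ID4 window 1. Searched on both strands, GTCT occurred in 77.5% of all 35116 RefSeq windows of this length, so its presence here is ordinary. The longer GGCGCC, letters of a known BMP response element, was in none of the 4 ID windows and in 16.4% of all windows. TATAA lay close to the start site in ID1, ID3 and ID4, beginning 31, 29 and 29 bases before it, and in 18.9% of all windows. CCAAT, which nuclear factor Y binds, matched 1 time in the ID1 and ID4 windows and 3 times in that of ID2, and occurred in 32.0% of all windows. CANNTG, the E box that E proteins bind, matched 1 time each in ID2 and ID4 and occurred in 61.8%. In ID1 a further TATAA match, on the opposite strand, overlaps it, and no other match among these motifs in the 4 windows overlaps another. These matches describe the windows alone, and regulatory elements outside them were not searched.

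Values below are signals, the deposited intensities after quantile normalization, and the order is always NE, RA, FGF8. Signals under 26.4 (the median over non-control probe sets) were raised to that floor before differences were taken, so where the dimmer array is at the floor the fold is given as "at least". The labels could be checked against marker genes. The astrocyte filament gene GFAP had signals of 6.0, 14496 and 3058, and 7 of 10 astrocyte markers were at least 2-fold higher than NE on each astrocyte array, while ALDH1L1, another astrocyte marker, stayed low at 38.0, 45.6 and 43.4. Of 10 neuroepithelial markers 6 were at least 2-fold lower on the RA array and 5 on the FGF8 array. The other way, 1 was at least 2-fold higher with RA (NES, at 2870, 5894 and 3340). The stem cell gene LIN28A was at 3581, 5.78 and 19.0, and SOX2, which both cell types express, at 6948, 7289 and 9274. Other cell types were not equally represented. Summed signals were 5601, 3164 and 7855 for 6 neuron markers and 373, 1068 and 6488 for 5 oligodendrocyte lineage markers. On the FGF8 array most of these sums came from DCX (6763) and PDGFRA (6040). Between the astrocyte arrays, 2 neuron markers were at least 2-fold higher with RA and 2 lower, of 5 compared. Of 4 oligodendrocyte lineage markers compared there, only PDGFRA passed 2-fold, lower with RA. All 6 mesenchymal and perivascular markers lay above the floor on the NE array (summed signal 9018), against 1 on the RA array (90.8) and 2 on the FGF8 array (449). Of 5 choroid plexus markers, an epithelium of the dorsal midline, 4 lay above the floor on the NE array (summed signal 4370), against 2 on the RA array (202) and 2 on the FGF8 array (1353), and of 4 compared 4 were at least 2-fold lower with RA and 3 with FGF8. Most of the NE sum came from OTX2 (2545) and FOLR1 (1404), with TTR at 335. Most of the FGF8 sum came from FOLR1 (1116), and CLIC6 lay under the floor on every array. The ratio of 3' to 5' signal for the control transcript ACTB was 1.33, 6.67 and 6.63 and for GAPDH 0.984, 1.79 and 1.65, and the 18 hybridisation spike-ins were 2.62-fold brighter on the RA array than on the NE array.

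Against the NE array, 7 of the 10 BMP genes were at least 2-fold lower on the RA array and 1 was higher. Among all 13339 genes compared, 14.6% were at least 2-fold lower and 18.1% higher. On the FGF8 array 7 of 10 were also at least 2-fold lower and 1 higher, where 10.2% of 13004 genes were lower and 12.8% higher. Of all genes past 2-fold, 55.4% were higher with RA and 55.6% with FGF8, shares that became 70.8% and 75.8% when array medians were set equal, and 7.02% and 39.2% when the arrays were scaled to the spike-ins. The members' median log2 difference was -1.47 on the RA array and -1.71 on the FGF8 array, beside 0.07 and 0.05 for all genes compared. In both comparisons 9 of 10 members lay below 0, against 47.0% and 47.1% of all genes. Both comparisons use the same NE array, so its error enters both. BMP4, BAMBI and SMAD7 lay at the floor on the RA array, and BMP4, ID1 and SMAD6 on the FGF8 array, and each of these could only come out as lower. Summed markers of mesenchymal cells were lower on both astrocyte arrays, as were those of choroid plexus (mostly OTX2 and FOLR1 on the NE array), and the ACTB ratio was higher on both. Their part in the members' differences was not tested. In bulk RNA, fewer cells expressing a gene and less RNA per cell cannot be told apart.

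**Figure D1:**
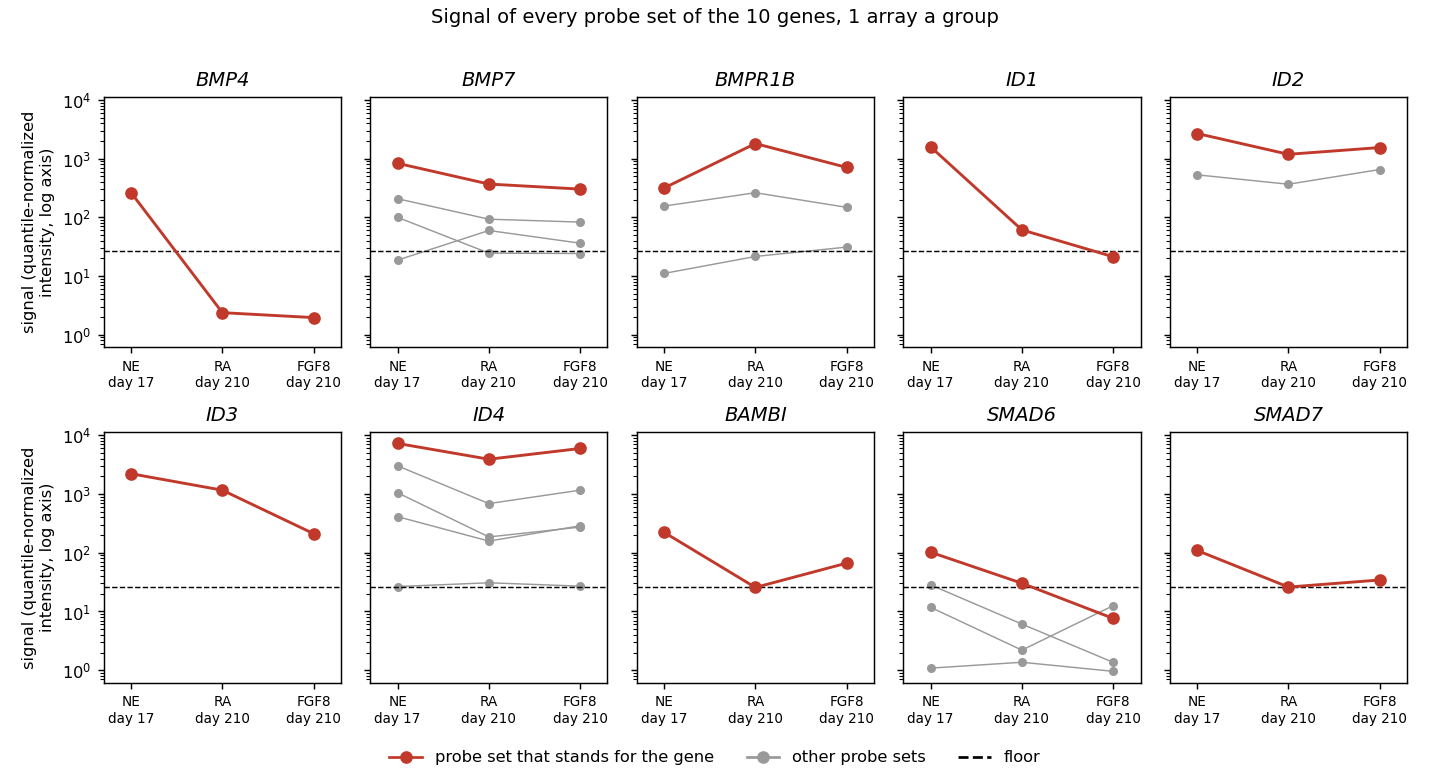
Signal of all 23 probe sets of the 10 genes on the NE (day 17), RA and FGF8 (day 210) arrays, with a log axis for quantile-normalized intensity; red points are the probe set that stands for the gene, grey points its other probe sets, and the dashed line is the floor at 26.4. BMP4 is at 262 on the NE array and at 2.38 and 1.96 on the astrocyte arrays, ID1 at 1583, 61.1 and 21.3, and BMPR1B is highest on the RA array at 1804.

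Among the ligands, BMP4, a dorsalizing factor that also turns embryonic stem cells toward non-neural fates, had signals of 262, 2.38 and 1.96. It was thus above the floor in NE cells alone, and at least 9.95-fold lower on each astrocyte array. It has 1 probe set on the array. BMP7, which acts in dorsal patterning and in the growth of neural precursors, gave 831, 369 and 302. Unlike BMP4, it lay well above the floor in both astrocyte cultures, 2.25-fold lower with RA and 2.75-fold lower with FGF8 than in NE cells.

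The other BMP7 probe sets did not all follow. A second gave 207, 92.9 and 83.0, 2.23-fold and 2.50-fold lower. Another gave 99.96, 24.6 and 24.2, at least 3.79-fold lower on both. The last, dim throughout, went the other way at 18.7, 59.7 and 36.3, at least 2.26-fold higher with RA and at least 1.38-fold higher with FGF8. So 3 of 4 BMP7 probe sets were at least 2-fold lower on each astrocyte array, and the log2 signals of all 4, each raised to the floor and then averaged, differed by -0.77 with RA and -1.06 with FGF8. Averaged before the floor was applied they differed by -0.67 and -0.97, so the 2-fold call with FGF8 depended on that order. With array medians set equal, the brightest also came within 2-fold, at -0.70 and -0.91.

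The receptor went against the rest of the members. BMPR1B, a type I receptor that with BMPR1A carries most BMP signalling in neural precursors, had signals of 316, 1804 and 708. The RA array was highest and the NE array lowest. It was 5.71-fold higher with RA and 2.24-fold higher with FGF8 than in NE cells, and 4.04% and 10.3% of compared genes had a larger difference. A second probe set gave 156, 262 and 148, a log2 difference of 0.75 for RA and -0.07 for FGF8. The last, at 11.1, 21.6 and 31.1, was above the floor on the FGF8 array alone. The size of the BMPR1B difference therefore depended on the probe set, and the 2-fold difference with FGF8 rested on the brightest of them. The mean of all 3 gave 0.44 with FGF8 when each was raised to the floor first and 0.86 when it was not.

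The 4 ID genes hold back differentiation by binding E proteins, and their differences on the probe sets that stand for them were unlike in size. ID1 was far lower on both astrocyte arrays and ID3 on the FGF8 array, where ID2 and ID4 stayed closer to the NE level. With RA, ID2, ID3 and ID4 were 2.26-fold, 1.91-fold and 1.86-fold lower. For ID4 this depended on the probe set, as 3 of 5 were at least 2-fold lower with RA and 2 with FGF8. ID1 had signals of 1583, 61.1 and 21.3. It was 25.9-fold lower with RA and at least 60.0-fold lower with FGF8 than in NE cells. Of compared genes 0.42% had a more negative difference with RA and 0.07% with FGF8. ID1 and BMP4 cannot be ranked: BMP4 has only a bound, and with no floor its values of -6.78 and -7.06 passed those of ID1, -4.70 and -6.21. ID3, often induced together with ID1, had signals of 2214, 1162 and 211. It was 1.91-fold lower with RA, short of 2-fold, and 10.5-fold lower with FGF8. On the RA array ID3 thus lay far above the floor, while ID1 was close to it. Each of these genes has 1 probe set, so no second probe set could be set beside them.

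ID2, which also binds retinoblastoma family proteins, gave 2676, 1183 and 1543. It was 2.26-fold lower with RA and 1.73-fold lower with FGF8. Its other probe set, of the type that can bind related transcripts, gave 529, 366 and 651, 1.45-fold lower with RA and 1.23-fold higher with FGF8. No probe set of ID2 was 2-fold lower on the FGF8 array, and with equal array medians the difference with RA was -0.63. The mean of both probe sets gave -0.85 with RA.

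ID4, a regulator of the timing of oligodendrocyte and neural stem cell differentiation, had signals of 7265, 3909 and 5957 on its brightest probe set. That probe set was 1.86-fold lower with RA, and with FGF8 it differed from NE by -0.29 on the log2 scale, a value that turned to 0.29 when array medians were set equal. Its dimmer probe sets showed larger differences. One gave 3011, 687 and 1162, 4.38-fold and 2.59-fold lower, another 1048, 186 and 273, 5.64-fold and 3.84-fold lower, and 1 more 411, 158 and 288, 2.60-fold and 1.43-fold lower. The dimmest lay just above the floor, at 26.6, 30.8 and 27.0. Of 5 ID4 probe sets 3 were at least 2-fold lower with RA and 2 with FGF8, so the choice of the brightest gives the smallest difference among the 4 probe sets that lie clearly above the floor.

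Among the inhibitors, BAMBI, a membrane protein that resembles a type I receptor but lacks the kinase, had signals of 222, 25.6 and 66.5. It reached the floor on the RA array, at least 8.42-fold lower, and was 3.34-fold lower on the FGF8 array. SMAD7, which blocks both BMP and TGF-beta receptors, gave 109, 26.0 and 34.3. It was at least 4.15-fold lower with RA and 3.19-fold lower with FGF8, with both astrocyte signals at or near the floor. SMAD6, which acts chiefly on the BMP branch, gave 102, 30.2 and 7.62. It was 3.38-fold lower with RA and at least 3.87-fold lower with FGF8. All 3 inhibitors were thus brightest on the NE array. Of the other SMAD6 probe sets, 1 was barely above the floor in NE cells (28.3, 6.10 and 1.36) and 2 lay under it on every array, so SMAD6 rests on 1 probe set. With the floor at the 70th percentile SMAD6 and SMAD7 had only bounds of -0.10 and -0.20 in both comparisons, which do not limit how much lower they were. The mean of all SMAD6 probe sets, each raised to the floor, gave -0.46 with RA and a bound of -0.51 with FGF8.

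**Figure D2:**
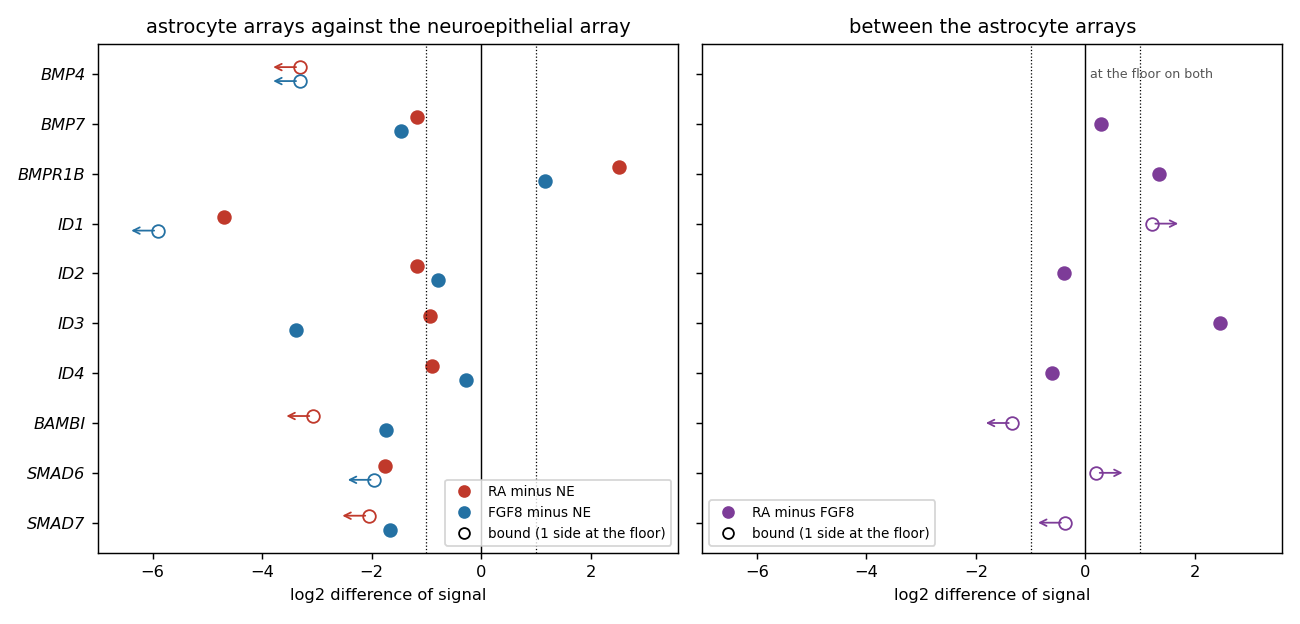
Log2 difference of signal for the probe set that stands for each gene, RA and FGF8 minus NE on the left and RA minus FGF8 on the right; open points with arrows are lower bounds, and dotted lines mark 2-fold. On the left BMPR1B alone lies above 0, and on the right ID3 at 2.46 is the farthest from 0.

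**Figure D3:**
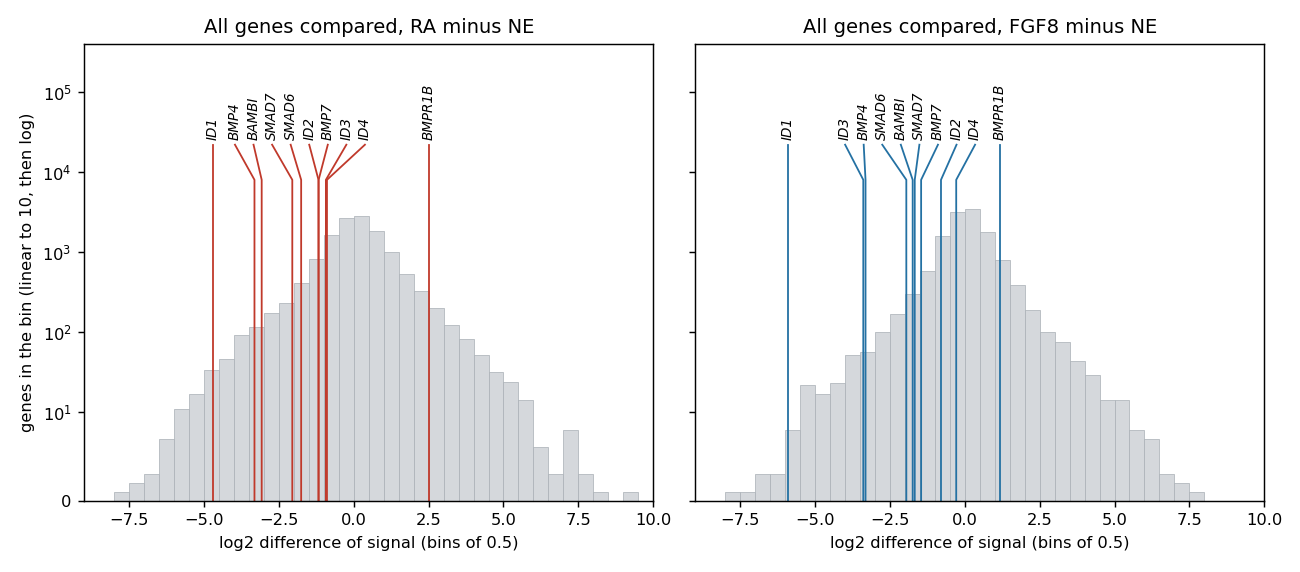
Number of genes in each bin of log2 difference, for RA minus NE (13339 genes) and FGF8 minus NE (13004 genes), with the 10 members marked; the vertical axis is linear up to 10 and logarithmic above. Of the 10 members 9 lie left of 0 in each panel. ID1 is plotted farthest out, but BMP4 stands at a bound set by the floor and lies beyond ID1 when no floor is used.

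Between the astrocyte cultures, the comparison asks whether the morphogen given early went with different BMP pathway signals at day 210. On the RA array 3 members were at least 2-fold higher than on the FGF8 array and 1 was lower, of 9 compared. Among 12959 genes 9.68% were at least 2-fold higher and 7.86% lower. ID3 showed the largest difference, 5.50-fold higher with RA (1162 against 211), and 1.58% of compared genes had a larger one. BMPR1B was 2.55-fold higher with RA on its brightest probe set and 1.77-fold on the second. Its dimmest probe set went the other way, at least 1.18-fold lower with RA, and the mean of all 3 was within 2-fold, at 0.65 with each raised to the floor and 0.55 without. ID1 was at least 2.32-fold higher, with both ID1 signals low. BAMBI was at least 2.52-fold lower with RA.

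No 2-fold difference was measured for the remaining members. ID2 (1.30-fold) and ID4 (1.52-fold) were lower with RA, opposite in direction to ID1 and ID3. BMP7 differed by a log2 value of 0.29, which turned to -1.004 when the arrays were scaled to the spike-ins instead. SMAD6 and SMAD7 had only bounds of 0.20 and -0.38, which do not limit how far apart they were. SMAD6 came to at least 1.67 with the floor at the 30th percentile and to 1.99 with none. BMP4, under the floor with either morphogen, was not compared. Spike-ins were 2.40-fold brighter on the RA array than on the FGF8 array. With spike-in scaling the members' split went from 3 higher and 1 lower to 1 higher and 4 lower. Among all genes this scaling left 278 at least 2-fold higher and 7349 lower, with a median of -1.18. The members' shift is therefore to be read beside that of all genes. ID3 was then still higher by 1.24, whereas ID1 and BMPR1B came within 2-fold at 0.13 each and ID2 and ID4 passed it at -1.62 and -1.65. The ACTB ratios of these arrays were 6.67 and 6.63, so the 3' to 5' balance was alike in this comparison. Summed neuron and oligodendrocyte lineage markers were higher on the FGF8 array than on the RA array, mostly through DCX and PDGFRA. Their part in these differences was not tested.

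The rest of the pathway was read from 6 lists of 92 genes other than the members, of which 87 had a probe set. With RA, 13 of 69 compared were at least 2-fold higher and 18 lower than in NE cells, or 18.8% and 26.1%, and the median was -0.30. With FGF8, 13 of 64 were higher and 16 lower, or 20.3% and 25.0%, with a median of -0.28. The shares among all genes were those given above for the members. Between the astrocyte cultures 8 of 63 were higher with RA and 13 lower, or 12.7% and 20.6%, with a median of -0.04. Spike-in scaling moved the median of all genes from 0.07 to -1.15 for RA minus NE. It left 590 of all genes at least 2-fold higher there and 7817 lower. For FGF8 minus NE these counts were 1322 and 2053, and for RA minus FGF8 278 and 7349. The list counts that it changed are given below and are to be read beside these.

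**Figure D4:**
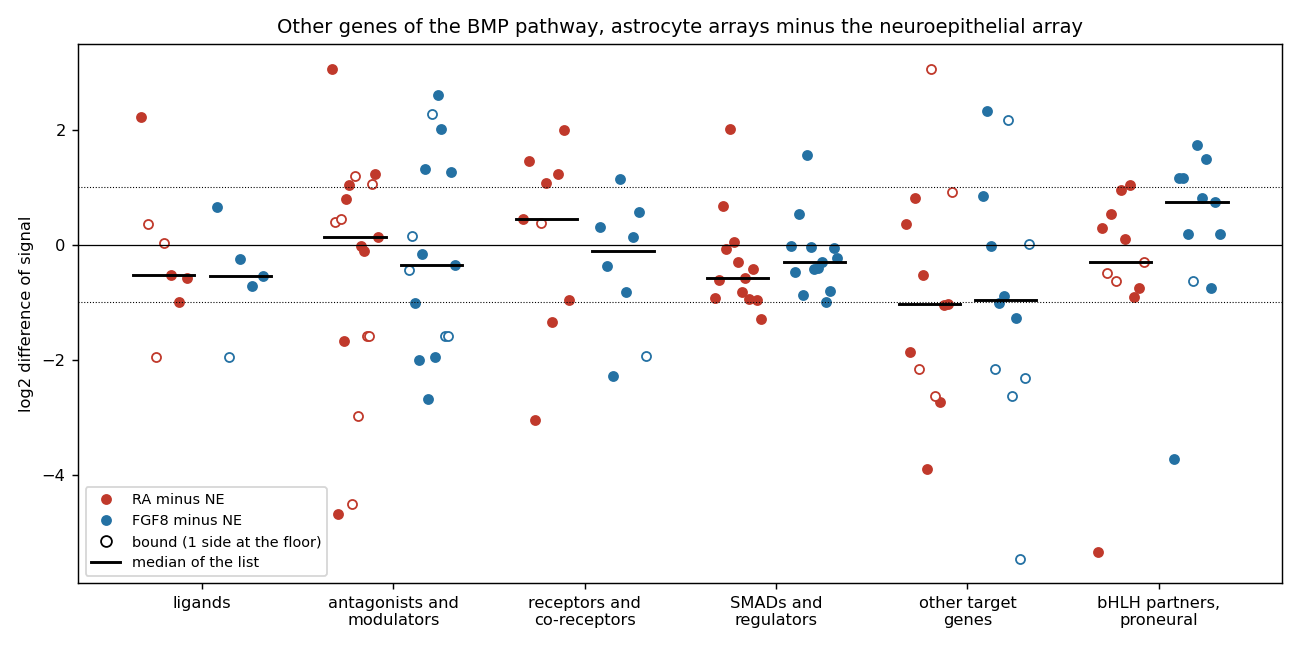
Log2 difference of signal against NE for genes of the 6 lists, RA in red and FGF8 in blue, with open points for bounds, a bar at each list's median and dotted lines at 2-fold. The other target genes have medians of -1.03 and -0.95, while the SMAD list lies mostly within 2-fold. For RA this was not so with spike-in scaling (11 of 13 lower), where the median of all genes was -1.15.

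Most other ligands were not detected above the floor. Of 15 with a probe set, 8 lay at the floor in both the NE and RA arrays and 10 in both the NE and FGF8 arrays. BMP2, the closest relative of BMP4, had signals of 102, 25.4 and 12.2, at least 3.88-fold lower on both astrocyte arrays. BMP1, which despite its name is a metalloprotease that cleaves procollagen and chordin, gave 73.8, 342 and 116, 4.64-fold higher with RA. Its other probe sets gave log2 differences of 1.54 and 0.35 with RA, against 2.21 on the brightest, and no ligand was 2-fold higher when probe sets were averaged or with spike-in scaling, where 4 were lower. The medians of this list were -0.52 with RA and -0.54 with FGF8.

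The list of antagonists and other extracellular modulators went both ways, 5 higher and 6 lower of 17 with RA and 5 higher and 6 lower of 15 with FGF8. Noggin, NOG, a ligand trap, had signals of 207, 23.1 and 53.8. GREM1, another ligand trap and one that mesenchymal cells also make, gave 600, 20.7 and 93.8, and the chordin-like CHRDL1 740, 29.0 and 365. All 3 were brightest in NE cells and dimmest with RA, and CHRDL1 was 12.6-fold lower with RA than with FGF8. Follistatin, FST, gave 314, 99.0 and 78.3. In the other direction SMOC1, a matricellular BMP antagonist, gave 544, 537 and 3303, and was 6.07-fold higher with FGF8 than in NE cells. CER1, a secreted antagonist of BMP and Nodal, was seen chiefly on the RA array at 35.5, 293 and 24.8. NBL1 was at least 2.28-fold higher with RA and at least 4.84-fold higher with FGF8. With spike-in scaling this list went to 1 higher and 9 lower with RA and 3 higher and 7 lower with FGF8. The list's median was 0.14 with RA and -0.34 with FGF8, the latter 0.18 with equal array medians.

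Of 11 receptors and co-receptors with a probe set other than BMPR1B, ENG and HJV lay under the floor on every array. Of 9 compared with RA, 4 were higher and 2 lower, and of 8 with FGF8, 1 was higher and 2 lower. The type II receptor BMPR2 had signals of 385, 807 and 851, higher by 2.21-fold with FGF8, although its 4 other probe sets gave log2 differences of 0.02 to 0.85. The activin receptors parted: ACVR2A gave 356, 981 and 275, whereas ACVR2B gave 1930, 234 and 395, 8.26-fold lower with RA and 4.88-fold lower with FGF8. RGMB, a BMP co-receptor, gave 168, 673 and 250, and the related RGMA 670, 1572 and 740. On RGMB 2 other probe sets gave -0.34 and -0.23 for RA minus FGF8 and another 2.36, against 1.43 on the brightest. With spike-in scaling no receptor was 2-fold higher with RA and 3 were lower than in NE cells. The 3 higher and 0 lower for RA against FGF8 became 0 higher and 4 lower. With probe sets averaged before the floor there were 2 higher and 2 lower with RA. The list's median was 0.44 with RA and -0.12 with FGF8, the latter 0.39 with equal array medians.

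The signal-transducing SMADs lay above the floor on every array. SMAD1, a direct substrate of BMP type I receptors, was the exception to small differences, at 727, 2944 and 2142. It was 4.05-fold higher with RA and 2.95-fold higher with FGF8, and its 2 other compared probe sets gave log2 differences of 2.17 and 2.62 with RA and 1.73 and 2.54 with FGF8. SMAD5 gave 924, 621 and 751, SMAD9 619, 321 and 313, and the common partner SMAD4 864, 490 and 655. Of 13 genes 11 lay within 2-fold with RA and 12 with FGF8. With spike-in scaling 11 were at least 2-fold lower with RA and none higher, so that SMAD1 was no longer past 2-fold there. The median of all genes for RA minus NE was then -1.15. With FGF8 1 was higher and 1 lower under this scaling. ZNF423, a cofactor of BMP-activated SMADs, was 2.44-fold lower with RA. The list's median was -0.57 with RA and -0.30 with FGF8, the latter 0.27 with equal array medians.

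Other genes known as BMP targets had more lower than higher members, 7 lower and 1 higher of 12 with RA, and 6 lower and 2 higher of 12 with FGF8. With FGF8 this balance depended on the probe sets: it was 3 lower and 3 higher when they were averaged, and 3 lower and 2 higher when the _x_at and _s_at types were passed over. MSX1, a homeobox gene of the dorsal midline, had signals of 163, 3.01 and 17.5, at least 6.18-fold lower on both. HEY1, which Notch also induces, gave 842, 56.4 and 455, and SNAI2, a neural crest and mesenchymal gene, 253, 38.4 and 105. JUNB, an AP-1 subunit with many other inducers, was at 24.1, 220 and 118, at least 8.36-fold and 4.49-fold higher. DLX5, a ventral forebrain gene as well as a BMP target in bone, was at 176, 48.5 and 881, and SPP1, osteopontin, at 1158, 561 and 19.1. The genes of this list did not share a single order across the 3 arrays. The medians were -1.03 and -0.95.

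The E proteins that ID proteins bind were present in all cultures. TCF12 had signals of 1867, 3835 and 5245, 2.05-fold higher with RA and 2.81-fold higher with FGF8. For RA 2 dimmer probe sets were at -0.40 and -0.34 and another at 2.62. TCF4 gave 2390, 1416 and 3992, and TCF3 1932, 1028 and 1153. HES5, a Notch effector, was 40.2-fold lower with RA and 13.1-fold lower with FGF8. Of 11 partners and proneural genes compared, 1 was higher and 1 lower with RA, and 4 were higher and 1 lower with FGF8, with medians of -0.30 and 0.74. With spike-in scaling 8 were lower and none higher with RA, and 2 lower and 3 higher with FGF8.

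The genes most like each ID gene across the 3 arrays were found by the distance between log2 profiles centred on their own means, among 13737 other genes above the floor on at least 1 array. The distances use signals before the floor. With 3 arrays such likeness is easily reached and describes these arrays alone. Nearest to ID1 were SOSTDC1 (distance 0.09), TEK (0.15) and LOC151760 (0.27), each with both astrocyte signals below the floor, as is that of ID1 with FGF8, so the likeness to ID1 rests on values under the floor and shows no measured resemblance. Nearest to ID3 were NR2F2-AS1 (0.10), GNAS-AS1 (0.11) and LOC728485 (0.11), dim transcripts with an NE signal of at most 62.9 and an FGF8 signal under the floor, to which the same applies. Nearest to ID2 were ZNF383, PIM3 and SIVA1, all at a distance of 0.01, and nearest to ID4 were HPF1, DCUN1D4 and NAA25, also at 0.01. Both astrocyte signals of ZNF383 (16.4 and 21.6) lay under the floor, so the same applies to it, while the rest lay above the floor on every array. Distances within the family use the brightest ID4 probe set, whose differences from NE were smaller than those of its other probe sets clearly above the floor. Those from ID1 also use its FGF8 signal of 21.3, under the floor. Within the family ID2 and ID4 were 0.36 apart, ID2 and ID3 2.23, ID3 and ID4 2.52, and ID1 was 2.77 from ID3, 3.89 from ID2 and 4.25 from ID4. ID3 was thus the family member nearest to ID1, ranking 468 among the 13737 genes by distance from it, and ID2 ranked 1788 and ID4 3451.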

How the data were processed

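RNA of 3 H9-derived cultures, extracted with Trizol and a column cleanup and labelled with biotin at a core facility per the labels' protocols, was measured on 1 Affymetrix array each. The deposited values are 1 linear intensity for each of 54675 probe sets. How the authors computed it from the probes is not stated in what was used here. The means without the lowest and highest 2% of values were 150.0 on all 3 arrays, so each array had been scaled. Quantile normalization across the arrays, a floor at the median of non-control probe sets (26.4, log2 4.72) and log2 differences were computed with Python 3.11.15, numpy 2.4.6 and pandas 2.3.3. They were checked on simulated data in which only genes bright on the NE array were changed, so bounds at the floor were little checked.

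Probe sets with 1 symbol in the platform annotation (41091, against 1801 with several and 11721 with none) were used, and identifiers of all 10 members matched RefSeq genes. A gene was represented by its brightest probe set, leaving out the _x_at type where another existed. Genes were counted at 2-fold or more. Promoter windows are from RefSeq (GRCh38.p14), and 9 of 10 members had one. The members, gene lists and settings were chosen with earlier results of these data known. Named from each list were up to 3 genes a direction and comparison with the largest differences past 2-fold, genes needed to complete a count, all members, the labelled cell types' markers and the 3 nearest profiles of each ID gene. SMAD4, SMAD5, SMAD9 and TCF3, named for their role, were chosen after their values were seen. Alternatives tried were no further normalization, setting array medians equal, spike-in scaling and averaging probe sets after the floor (both added after seeing the data), a floor at the 30th or the 70th percentile, no floor, averaging a gene's probe sets before the floor, passing over _x_at and _s_at types where another existed, and 1.5-fold and 4-fold thresholds.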

Additional observations from a re-analysis of the deposited data

How the results depend on the processing

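With 1 array a group, the limit on every value is the number of arrays, and low signals near 26.4 have little weight. The members' counts of 8, 8 and 4 at least 2-fold apart (RA minus NE, FGF8 minus NE, RA minus FGF8) became 5, 3 and 1 at 4-fold, the second became 5 when a gene's probe sets were averaged, and that of RA minus FGF8 became 2 with the floor at the 70th percentile, where 5 members had no difference. Under the other alternatives each count stayed within 1.5 times, but with spike-in scaling the 3 higher and 1 lower of RA minus FGF8 became 1 higher and 4 lower. Of 250 member values recomputed, 107 were identical to the reported one, many because the alternative could not touch them (1 probe set, only _s_at types, or signals above the floor). Of the 143 that changed, 113 kept their direction and side of 2-fold, 20 came within it, 8 passed it, ID4 in FGF8 minus NE turned to 0.29 within it, and BMP7 in RA minus FGF8 turned to -1.004 with spike-in scaling. Equal array medians moved the median of all genes from 0.07 to 0.35 for RA minus NE and from 0.05 to 0.42 for FGF8 minus NE, and the higher share among genes past 2-fold from 55.4% to 70.8% and from 55.6% to 75.8%. Spike-in scaling moved these medians to -1.15 and -0.15, that of RA minus FGF8 from 0.01 to -1.18, and the higher shares to 7.02%, 39.2% and 3.64% (from 55.2%). Relative to the median of all genes, the members' median stayed between -1.56 and -1.10 for RA minus NE and between -1.87 and -1.06 for FGF8 minus NE over all alternatives. Of 198 recomputed counts of the pathway lists 68 moved by more than 1.5 times.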
